A study of Homo sapiens with 8 samples.

Results

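The genes described here are 29 genes of cholesterol synthesis and of its control by sterols, out of 33711 gene identifiers in the table of input RNA. They were chosen by name from the known pathway, with earlier results of these data known. All 29 were found and passed the filter on low values. Of these, 8 make the isoprenoid precursors from acetyl-CoA (mevalonate arm), 11 carry these on through squalene to cholesterol, 7 sense or transmit the sterol level to the nucleus (SREBP control), and 3 carry or bind sterols (sterol transport). RNA came from HCT116, an established colorectal cancer cell line grown in McCoy's 5a medium with fetal bovine serum. Cells of the control group (NC) received a non-targeting siRNA, and cells of the si-YTHDF3 group an siRNA against YTHDF3, a cytoplasmic protein that binds N6-methyladenosine (m6A) in mRNA. Both were delivered with the jetPRIME reagent, so transfection was common to all libraries, and the comparison asks how RNA levels differ once YTHDF3 is depleted.

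The 8 libraries fell into 4 groups of 2: input RNA and m6A-immunoprecipitated RNA from NC and from si-YTHDF3 cells. Expression was given for the 4 input libraries only, as FPKM (fragment counts divided by transcript length and by library size) per transcript, and transcripts were summed to genes. Nothing in the labels ties the libraries of a group to separate cultures, so p-values measure the spread between libraries, which may be technical. The descriptions of the si-YTHDF3 libraries carry different codes. The labels do not settle whether these name siRNAs or replicates, so these libraries may also differ in the siRNA used.

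Cells make cholesterol from acetyl-CoA by way of mevalonate and squalene. Most enzymes of the pathway are transcribed under SREBP-2, a membrane-bound factor that SCAP escorts from the endoplasmic reticulum to the Golgi when sterols are low, where the site-1 and site-2 proteases release its active part. INSIG1 and INSIG2 hold SCAP back when sterols are high. INSIG1 is itself an SREBP target, and SREBPs act at promoters together with NF-Y, a factor made of 3 subunits that binds the CCAAT box.

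The libraries were alike in overall scale, with FPKM sums of 371121 to 383303 and 14357 to 14483 genes at 1 FPKM or more. YTHDF3 itself stood at 25.9 and 11.96 FPKM in NC, against 2.53 and 3.25 FPKM after knockdown. The groups did not overlap, although the NC libraries differed from each other by 1.05 on the log2 scale (log2 fold change −2.27 ± 0.35, SE, limma adjusted p = 0.135). Against the mean of the NC libraries, the log2 fold change was −2.40 for si-YTHDF3 replicate 1 and −2.14 for si-YTHDF3 replicate 2. Of 7 colorectal epithelial markers, 6 were at 1 FPKM or more in every library and VIL1 was not, and their summed level was 1619 to 1795 FPKM in NC, against 1688 to 1898 FPKM after knockdown. Fibroblast markers (3 of 6 listed, 1 of them, COL1A1, at 1 FPKM or more throughout) summed to 12.04 to 15.8 FPKM in NC, against 11.95 to 13.8 FPKM after knockdown. Leukocyte markers (4 of 6 listed, 1 of them, CD68, at 1 FPKM or more throughout) summed to 1.97 to 2.26 FPKM and 2.04 to 3.16 FPKM. The part of other cells in the results was not tested.

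Promoter sequences of 4 sterol genes are shown: INSIG1, MSMO1 and TMEM97, for which lower RNA in both si-YTHDF3 libraries is described next, and SREBF2, the single gene of the set with a match to the sterol element. Each runs 5′ to 3′ on the plus strand from 250 bases before to 50 bases after the RefSeq start site (GRCh38.p14). Capitals mark the CCAAT box, which reads ATTGG where it lies on the other strand, and in SREBF2 also the sterol regulatory element core TCACNCCAC. The windows are chr7:155297628-155297927 for INSIG1, chr4:165327419-165327718 for MSMO1, chr17:28318950-28319249 for TMEM97 and chr22:41832855-41833154 for SREBF2, and in the deposited table the genes carry the identifiers ENSG00000186480, ENSG00000052802, ENSG00000109084 and ENSG00000198911.
INSIG1: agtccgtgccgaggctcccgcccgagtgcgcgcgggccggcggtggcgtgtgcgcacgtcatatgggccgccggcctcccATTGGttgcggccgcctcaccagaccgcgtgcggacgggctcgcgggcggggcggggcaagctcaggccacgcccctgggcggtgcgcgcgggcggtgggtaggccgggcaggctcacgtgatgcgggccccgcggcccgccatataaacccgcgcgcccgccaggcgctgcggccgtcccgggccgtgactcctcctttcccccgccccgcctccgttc
MSMO1: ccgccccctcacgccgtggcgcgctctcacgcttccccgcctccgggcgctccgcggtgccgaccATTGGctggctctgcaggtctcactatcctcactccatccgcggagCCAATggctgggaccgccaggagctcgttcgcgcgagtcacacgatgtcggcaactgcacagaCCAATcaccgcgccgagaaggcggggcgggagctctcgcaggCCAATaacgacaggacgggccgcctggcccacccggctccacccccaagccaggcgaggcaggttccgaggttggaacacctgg
TMEM97: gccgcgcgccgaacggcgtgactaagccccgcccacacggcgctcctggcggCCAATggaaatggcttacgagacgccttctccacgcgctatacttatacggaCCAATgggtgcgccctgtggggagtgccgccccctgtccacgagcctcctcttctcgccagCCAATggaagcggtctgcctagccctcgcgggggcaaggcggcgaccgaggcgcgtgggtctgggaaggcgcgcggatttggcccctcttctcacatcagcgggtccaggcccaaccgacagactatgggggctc
SREBF2: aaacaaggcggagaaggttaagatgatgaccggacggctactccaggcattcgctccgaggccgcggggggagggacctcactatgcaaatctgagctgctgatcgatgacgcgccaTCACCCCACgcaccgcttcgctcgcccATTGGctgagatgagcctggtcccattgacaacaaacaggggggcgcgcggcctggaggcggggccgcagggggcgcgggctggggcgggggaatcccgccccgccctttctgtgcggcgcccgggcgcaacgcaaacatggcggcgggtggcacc

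INSIG1 held 1 CCAAT box in this window, with its first base at −170 from the start, MSMO1 held 4 and TMEM97 held 3. SREBF2 held 1, at −106, and its sterol element began at −133. Promoters were matched for 26 of the 29 genes, all but ACAT2, FDFT1 and SQLE. A search of both strands found CCAAT in 18 of the 26 (69.2%), against 43.4% of the 9575 tested genes with a matched promoter. Tested or not, 39.7% of 27305 genes and 34.6% of 35116 promoters of the same length held it. A gene was counted if any of its promoters matched. TCACNCCAC was found in 1 of the 26 (3.85%), SREBF2, against 1.39% of genes and 1.13% of promoters. Such matches are letters in a window and not measured binding.

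After YTHDF3 knockdown more sterol genes had lower than higher RNA values. INSIG1, MSMO1, ACAT2 and TMEM97 were among the lower ones, and SREBF1, SCAP and the prenyl-chain enzyme FDPS had higher values. In bulk RNA such as this, fewer cells that express a gene and less of its RNA per cell cannot be told apart. By limma on log2(FPKM + 1) over the 14457 genes with a mean of at least 1 FPKM, 0 of 29 sterol genes had an adjusted p under 0.05, where 4 genes of all tested (0.0277%) did, and the smallest adjusted p of a sterol gene was 0.181. At an unadjusted p under 0.05, 6 sterol genes were lower (20.7%, against 6.53% of all genes tested) and 1 was higher (3.45%, against 8.29%). Because the list was chosen with earlier results known, these shares and those below are descriptions, and the list was not tested as a set. The count of 6 was 3 without NC replicate 1, 2 without NC replicate 2 and 3 without si-YTHDF3 replicate 2. INSIG1 and MSMO1 kept an unadjusted p under 0.05 with any 1 library left out, whereas ACAT2, SQLE and TMEM97 kept it in 1 of the 4 such fits and NSDHL in 0.

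Without overlap between groups, 13 sterol genes were lower after knockdown (44.8%, against 23.7% of all genes), and 5 were higher (17.2%, against 25.3%). For the other 11 the groups overlapped. The log2 fold change was negative for 20 of 29 (69.0%, against 48.0% of all genes), with a median of −0.11, where the median of all genes tested was 0.01. Summed over the 29 genes, the level was 1030 and 992 FPKM in NC, against 934 and 976 FPKM after knockdown. The median log2 gap between libraries of a group was 0.13 in NC and 0.17 in si-YTHDF3 for the sterol genes, and 0.17 in both groups for all genes tested.

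**Figure D1:**
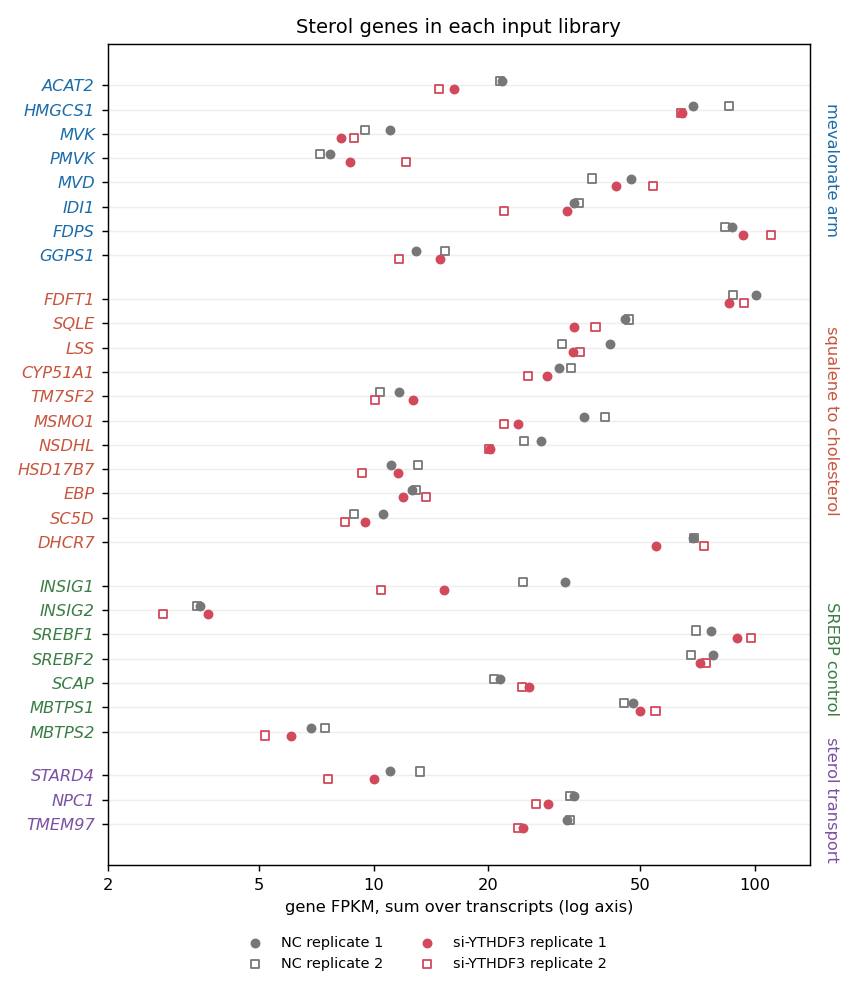
Level of each sterol gene (FPKM, log axis) in the 4 input libraries, with NC in grey and si-YTHDF3 in red, circles for replicate 1 and squares for replicate 2, and genes grouped by role. The red points lie left of both grey points for 13 genes and right of both for 5.

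**Figure D2:**
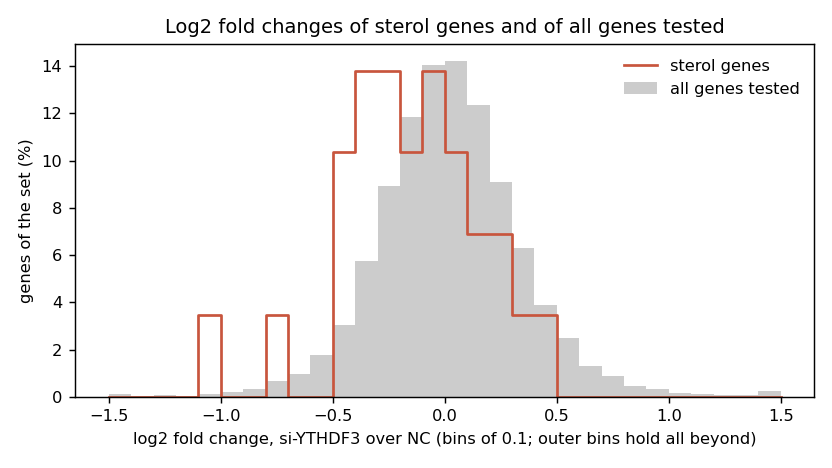
Distribution of log2 fold changes (si-YTHDF3 over NC, bins of 0.1) for the 29 sterol genes (line) and the 14457 genes tested (bars), as a percentage of each set. The sterol genes have a median of −0.11 and all genes a median of 0.01.

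In the mevalonate arm, 5 of 8 genes had a negative log2 fold change (against 48.0% of all genes) and 3 a positive one (median −0.16). Among the negative ones, GGPS1 turned positive without NC replicate 2 or without si-YTHDF3 replicate 2. ACAT2, the cytosolic thiolase that joins acetyl-CoA units at the entry to the pathway, stood at 21.7 and 21.4 FPKM in NC, against 16.2 and 14.8 FPKM after knockdown. The groups did not overlap and each was tight (log2 fold change −0.45 ± 0.13, SE, adjusted p = 0.251, unadjusted p = 0.0144). HMGCS1, the HMG-CoA synthase that follows, had 69.1 and 85.6 FPKM in NC, against 64.6 and 64.1 FPKM after knockdown (−0.25 ± 0.15, adjusted p = 0.452). Its si-YTHDF3 libraries were close together and below both NC libraries, but the nearer NC library was only slightly higher. Leaving out NC replicate 1 gave −0.41, leaving out NC replicate 2 gave −0.10, and the value was −0.56 (unadjusted p = 0.0181) with transcripts weighted by length.

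The mevalonate kinase MVK had lower values in both si-YTHDF3 libraries (11.0 and 9.46 FPKM in NC, then 8.22 and 8.87 FPKM after knockdown), whereas the next kinase, PMVK, had higher ones (7.66 and 7.24 FPKM against 8.69 and 12.1 FPKM). The log2 fold changes were −0.23 ± 0.14 and 0.42 ± 0.18, with adjusted p = 0.479 and 0.362. They were −0.13 for MVK without NC replicate 1 and 0.20 for PMVK without si-YTHDF3 replicate 2. MVD, the decarboxylase that yields isopentenyl diphosphate, overlapped between groups, at 47.4 and 37.4 FPKM in NC, against 43.3 and 54.1 FPKM after knockdown. IDI1, which interconverts the isoprenoid building blocks, was at 33.6 and 34.6 FPKM in NC, against 32.2 and 22.0 FPKM after knockdown, and its log2 fold change of −0.34 ± 0.20 was −0.079 without si-YTHDF3 replicate 2.

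FDPS, the farnesyl diphosphate synthase at the branch between sterols and protein prenylation, had higher values in both si-YTHDF3 libraries (87.1 and 83.5 FPKM in NC, then 93.5 and 111 FPKM after knockdown). Its log2 fold change was 0.25 ± 0.13 (adjusted p = 0.429), and 0.13 without si-YTHDF3 replicate 2. GGPS1, which makes the longer geranylgeranyl chain, overlapped between groups (12.9 and 15.4 FPKM against 14.9 and 11.6 FPKM). Over the whole arm, summed FPKM was 290 and 295 in NC and 282 and 298 in si-YTHDF3, so the groups overlapped.

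From squalene to cholesterol, 9 of 11 genes had a negative log2 fold change (against 48.0% of all genes), with a median of −0.11. Among the negative ones, FDFT1, LSS, SC5D and DHCR7 turned positive in a fit with 1 library left out. Without overlap, 4 lay lower (against 23.7% of all genes) and 0 lay higher (against 25.3%), and 7 overlapped. Summed over the 11 genes, FPKM was 397 and 379 in NC and 326 and 349 in si-YTHDF3, without overlap. MSMO1, the sterol C4-methyl oxidase, had the log2 fold change farthest from 0 of the 19 enzymes, with 35.6 and 40.6 FPKM in NC, against 23.9 and 22.0 FPKM after knockdown. Its log2 fold change was −0.70 ± 0.14 (95% interval −1.04 to −0.37, unadjusted p = 0.00255, adjusted p = 0.181), and it kept this sign in every alternative tried, between −0.80 and −0.61. NSDHL, the dehydrogenase that acts next in the same removal of methyl groups at C4, had 27.5 and 24.8 FPKM in NC, against 20.2 and 20.1 FPKM after knockdown (−0.36 ± 0.13, adjusted p = 0.312). HSD17B7, the reductase that completes this step, had overlapping groups, at 11.1 and 13.1 FPKM in NC, against 11.5 and 9.32 FPKM after knockdown (−0.20 ± 0.16, and −0.34 to −0.058 with 1 library left out).

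SQLE, the squalene epoxidase and a control point of the pathway, had 45.6 and 46.7 FPKM in NC, against 33.7 and 38.2 FPKM after knockdown. The NC libraries were nearly equal and both si-YTHDF3 libraries were lower (log2 fold change −0.35 ± 0.13, adjusted p = 0.315). For the enzymes on either side of it the groups overlapped. FDFT1, the squalene synthase, had 101 and 87.8 FPKM in NC, against 85.9 and 93.7 FPKM after knockdown, and LSS, which closes the sterol rings, had 41.6 and 31.2 FPKM against 33.3 and 34.7 FPKM.

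CYP51A1, which removes the methyl group at C14, had 30.7 and 33.0 FPKM in NC, against 28.5 and 25.3 FPKM after knockdown, lower without overlap (−0.24 ± 0.13, adjusted p = 0.447, and −0.15 without si-YTHDF3 replicate 2). TM7SF2, a sterol C14 reductase, had overlapping groups (11.6 and 10.4 FPKM against 12.7 and 10.1 FPKM). The late enzymes EBP, SC5D and DHCR7, which shift and add ring double bonds and reduce the last of them, also overlapped, with log2 fold changes of 0.0020 (negative under either rescaling of the libraries), −0.11 and −0.11. EBP, the sterol isomerase, had 12.6 and 12.9 FPKM in NC, against 11.9 and 13.7 FPKM after knockdown. SC5D, the desaturase, had 10.6 and 8.87 FPKM against 9.51 and 8.39 FPKM. DHCR7, the last of the 3 to act, was nearly equal in the NC libraries (69.0 and 69.2 FPKM) and lay on both sides of them in si-YTHDF3 (55.2 and 73.8 FPKM).

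Within SREBP control the members differed among themselves, with 3 negative and 4 positive log2 fold changes and a median of 0.0068, that of SREBF2, which turns negative when libraries are scaled to equal sums. INSIG1 stood at 31.8 and 24.7 FPKM in NC, against 15.3 and 10.5 FPKM after knockdown. This was the lowest log2 fold change of the 29 genes (−1.09 ± 0.22, 95% interval −1.64 to −0.54), rank 46 from the lowest of the 14457 genes tested, with unadjusted p = 0.00328 and adjusted p = 0.190. Both groups were spread, but the higher si-YTHDF3 library lay well below the lower NC library. Its paralog INSIG2 was much less abundant and overlapped between groups, at 3.49 and 3.44 FPKM in NC, against 3.67 and 2.80 FPKM after knockdown (−0.09 ± 0.16, adjusted p = 0.828).

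SREBF1, which encodes SREBP-1, better known for fatty acid synthesis, had higher values in both si-YTHDF3 libraries, at 76.9 and 70.1 FPKM in NC, against 90.0 and 97.8 FPKM after knockdown. It was the only sterol gene higher at an unadjusted p under 0.05 (0.35 ± 0.12, unadjusted p = 0.0331, adjusted p = 0.310). With any 1 library left out it was no longer called, at unadjusted p = 0.0553 to 0.177. SREBF2, which encodes SREBP-2, had 77.9 and 68.1 FPKM in NC, against 71.8 and 74.6 FPKM after knockdown, with a log2 fold change of 0.0068 (−0.023 with equal sums) and a 95% interval of −0.31 to 0.33. SCAP, the escort protein, had higher values in si-YTHDF3 (21.5 and 20.7 FPKM against 25.5 and 24.5 FPKM, 0.23 ± 0.12, adjusted p = 0.425, and 0.077 with transcripts weighted by length).

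The proteases that release SREBPs had values on opposite sides. MBTPS1, the site-1 protease, was higher without overlap (47.9 and 45.4 FPKM in NC, then 50.0 and 54.9 FPKM after knockdown, 0.17 ± 0.13, adjusted p = 0.560, and 0.098 without si-YTHDF3 replicate 2). MBTPS2, the site-2 protease, was lower without overlap (6.85 and 7.47 FPKM against 6.08 and 5.17 FPKM, −0.30 ± 0.15, adjusted p = 0.395).

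All 3 genes of sterol transport were lower without overlap after knockdown (against 23.7% of all genes), with a median log2 fold change of −0.41. Their summed FPKM was 76.8 and 78.8 in NC and 63.4 and 58.1 in si-YTHDF3. TMEM97, an endoplasmic reticulum protein that binds NPC1, had 32.2 and 32.8 FPKM in NC, against 24.6 and 23.9 FPKM after knockdown, with the spread within each group far under the distance between them (−0.41 ± 0.12, unadjusted p = 0.0167, adjusted p = 0.260). With transcripts weighted by length its log2 fold change was −0.20 (unadjusted p = 0.314), and the unadjusted call was also lost without NC replicate 1, NC replicate 2 or si-YTHDF3 replicate 2. NPC1, the lysosomal cholesterol exporter, had 33.6 and 32.8 FPKM in NC, against 28.8 and 26.6 FPKM after knockdown (−0.25 ± 0.12, adjusted p = 0.399). STARD4, a soluble sterol carrier, had 11.0 and 13.2 FPKM in NC, against 10.0 and 7.59 FPKM after knockdown (−0.43 ± 0.18, adjusted p = 0.353, and −0.25 without si-YTHDF3 replicate 2).

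**Figure D3:**
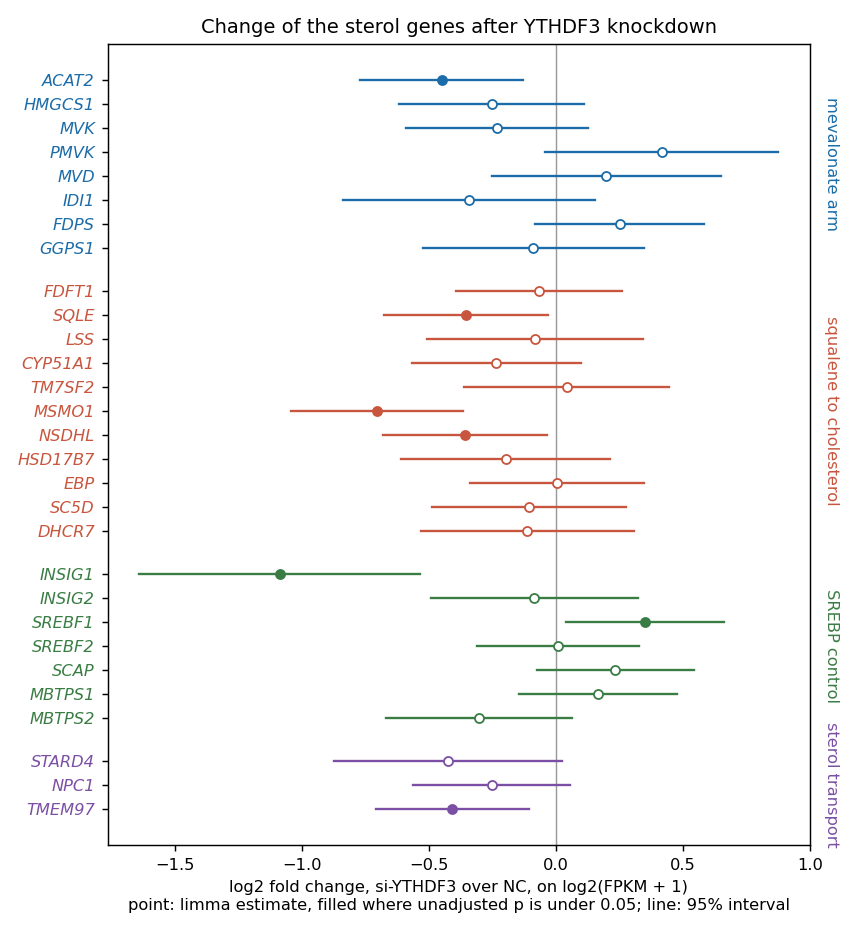
Log2 fold change of each sterol gene (si-YTHDF3 over NC, limma estimate on log2(FPKM + 1)) with its 95% interval, grouped by role, with filled points where the unadjusted p was under 0.05. Of the 7 filled points, 6 lie below 0 and 1, SREBF1, lies above 0.

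Grouped by the CCAAT box of the promoter, the 18 sterol genes that held it had a median log2 fold change of −0.16, with 13 negative. Among these 18, 8 were lower without overlap and 1, FDPS, was higher without overlap. The 8 that held none had a median of 0.04, with 4 negative. Among these 8, 3 were lower without overlap (CYP51A1, MBTPS2 and NPC1) and 4 were higher without overlap (PMVK, SREBF1, SCAP and MBTPS1). Over the 9575 tested genes with a matched promoter the same split gave medians of −0.0036 with the box and 0.0031 without it, with 25.9% and 25.1% lower without overlap and 23.7% and 25.1% higher without overlap. ACAT2, FDFT1 and SQLE had no matched promoter and are in neither group of sterol genes, although ACAT2 and SQLE were lower without overlap. The difference between the groups of sterol genes is a description and was not tested.

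The 29 genes had 296 transcripts in the table, of which 137 had a mean of at least 1 FPKM. Transcripts of a gene overlap, and reads common to several have to be divided among them by estimation, so each value below is such an estimate. By limma over 38284 transcripts, none had an adjusted p under 0.05 (0%), while 1234 (3.22%) were lower and 1525 (3.98%) higher at an unadjusted p under 0.05. Among the transcripts of sterol genes, 4 (2.92%) were lower and 2 (1.46%) higher at that level. A rule of at least 2-fold between group means, no overlap and at least 5 FPKM in the higher group picked 6 of the 137 as lower (4.38%, against 2.34% of all transcripts) and 3 as higher (2.19%, against 2.54%).

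INSIG1 had 2 protein-coding transcripts among the 6 lower ones. ENST00000340368, its leading transcript, had 19.4 and 5.40 FPKM in NC, against 2.24 and 3.64 FPKM after knockdown (−1.56 ± 0.67, adjusted p = 0.759). ENST00000476756 had 7.07 and 8.77 FPKM against 5.29 and 0.539 FPKM. These transcripts were uneven between replicates. Another coding transcript, ENST00000342407, overlapped between groups, at 1.13 and 7.40 FPKM in NC, against 6.92 and 2.30 FPKM after knockdown. ENST00000340368 made up 43.9% of the gene in NC and 22.8% after knockdown, and its NC level was high mainly in replicate 1. How far the separation seen in the gene sum rests on that transcript was not tested.

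For TMEM97 and HMGCS1 the lower transcript rested on 1 NC library. TMEM97 ENST00000582384 had 15.6 and 1.20 FPKM in NC, against 1.11 and 0.855 FPKM after knockdown, and HMGCS1 ENST00000433297 had 36.8 and 11.7 FPKM against 9.79 and 9.51 FPKM. In NC replicate 1 the main TMEM97 transcript, ENST00000226230, was correspondingly low (16.2 FPKM, against 31.3, 22.9 and 22.7 FPKM in the other libraries), and the gene sums of the NC libraries were nearly equal. FDFT1 ENST00000528812, a minor coding transcript, had 4.87 and 6.84 FPKM in NC, against 2.86 and 1.24 FPKM after knockdown (−1.21 ± 0.37, adjusted p = 0.660).

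SREBF2 had a level gene sum but an uneven set of transcripts. ENST00000424354, annotated as a target of nonsense-mediated decay (the pathway that destroys mRNAs with an early stop codon), had 11.65 and 10.63 FPKM in NC, 15.3% of the gene, and both knockdown libraries listed it at 0. An exact 0 in such a table can be a failed estimate, so no fold is given. Its adjusted p was 0.0869, and 19 of all 38284 transcripts (0.0496%) were likewise listed at 0 in both si-YTHDF3 libraries and at 5 FPKM or more in both NC libraries. The coding transcript ENST00000612482 was higher, but through si-YTHDF3 replicate 1 (4.03 and 4.27 FPKM in NC, then 17.2 and 4.53 FPKM after knockdown). The leading transcript, ENST00000361204, overlapped between groups at 50.2 and 43.4 FPKM against 44.8 and 63.4 FPKM.

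Of the 16 SREBF1 transcripts at 1 FPKM or more, 8 were higher without overlap and 1 was lower, where 20.6% of all transcripts tested were higher and 19.1% lower without overlap. Its leading coding transcript, ENST00000261646, had 17.4 and 14.4 FPKM in NC, against 19.2 and 19.5 FPKM after knockdown. ENST00000584760, annotated as a retained intron, had 2.20 and 3.01 FPKM against 6.16 and 6.09 FPKM (0.99 ± 0.21, adjusted p = 0.464). SCAP ENST00000441517, annotated as a target of nonsense-mediated decay, had 3.11 and 2.68 FPKM in NC, against 7.89 and 3.76 FPKM after knockdown. In si-YTHDF3 replicate 1, where it was highest, another SCAP transcript with that annotation, ENST00000320017, was listed at 0, where the other libraries had 7.03 and 5.40 FPKM (NC) and 6.02 FPKM (si-YTHDF3 replicate 2). For MSMO1, 3 of 5 transcripts were lower without overlap and none was higher, among them ENST00000507013 at 7.05 and 6.27 FPKM against 3.81 and 3.74 FPKM.

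**Figure D4:**
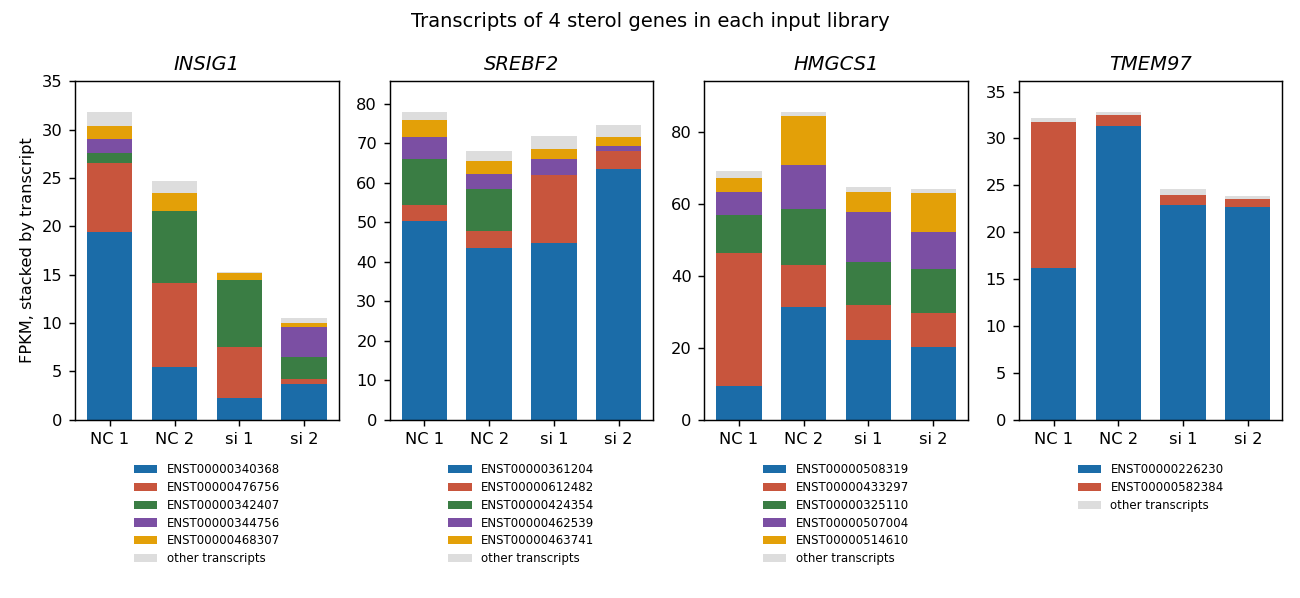
FPKM of INSIG1, SREBF2, HMGCS1 and TMEM97 in each input library, stacked by transcript, with transcripts under a mean of 1 FPKM in grey. The gene totals of INSIG1 are 31.8 and 24.7 in NC and 15.3 and 10.5 in si-YTHDF3, and the SREBF2 transcript ENST00000424354 is listed at 0 in both si-YTHDF3 libraries.

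Genes next to the pathway were counted in the same fit, in which 6.53% of all genes were lower and 8.29% higher at an unadjusted p under 0.05, so 1 gene called in a list of 13 is near those shares. Of 13 genes of fatty acid synthesis and SREBP-1 targets, 0 were lower and 1 was higher at an unadjusted limma p under 0.05 (median −0.02), the higher one being ME1, the malic enzyme that supplies NADPH, at 15.1 and 16.1 FPKM in NC, against 22.8 and 20.6 FPKM after knockdown. Its call was lost without NC replicate 1 or si-YTHDF3 replicate 1. Of 13 genes of the prenyl, dolichol and ubiquinone branches, 0 were lower and 1 was higher (median −0.02), RABGGTA, a subunit of the enzyme that prenylates Rab proteins (9.87 and 8.95 FPKM against 12.5 and 11.8 FPKM). Its call was lost with a filter at 5 FPKM, with either rescaling and with any library left out (unadjusted p = 0.0772 to 0.202). Of 6 genes of LXR and cholesterol efflux, 4 passed the filter on low values, 2 negative and 2 positive (median 0.14), and 0 were called at that level in either direction. Of 9 genes of sterol traffic and storage, 1 was lower, the caveolar protein gene CAV1 (128 and 132 FPKM against 106 and 106 FPKM), and 1 was higher, the oxysterol-binding protein relative OSBPL2 (7.94 and 8.56 FPKM against 11.1 and 10.9 FPKM). Both calls were lost with any library left out, at unadjusted p = 0.109 to 0.192 for CAV1 and 0.0631 to 0.134 for OSBPL2.

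Of 11 genes that govern degradation of sterol-regulated proteins at the endoplasmic reticulum or regulate SREBP, 1 was lower and 1 was higher (median −0.24). The level was an unadjusted limma p under 0.05, met by 6.53% (lower) and 8.29% (higher) of all genes. ERLIN2, part of the complex that guides such proteins to degradation, had 4.40 and 4.69 FPKM in NC, against 7.96 and 9.11 FPKM after knockdown (0.78 ± 0.14, adjusted p = 0.170). FAF2, which recruits the extraction machinery, had 36.6 and 39.6 FPKM against 30.3 and 28.6 FPKM (−0.36 ± 0.13, adjusted p = 0.303), and its call was lost with any library left out (unadjusted p = 0.0630 to 0.1597).

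Of 6 genes of SREBP cofactors and regulators, 2 were lower and 0 higher at an unadjusted p under 0.05 (against 6.53% and 8.29% of all genes), and both encode NF-Y subunits. NFYB had 16.7 and 19.5 FPKM in NC, against 10.8 and 7.78 FPKM after knockdown (−0.91 ± 0.19, adjusted p = 0.191, and −0.55 with transcripts weighted by length). NFYC had 32.2 and 30.8 FPKM in NC, against 23.5 and 22.4 FPKM after knockdown (−0.44 ± 0.12, adjusted p = 0.242), and its call was lost without NC replicate 1 or si-YTHDF3 replicate 2. The third subunit gene, NFYA, had slightly higher values (13.8 and 14.2 FPKM against 15.4 and 14.9 FPKM, 0.10 ± 0.13, adjusted p = 0.727). NF-Y binds the CCAAT box shown above, but whether these levels bear on the sterol genes was not tested.

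Of the m6A data, only a pooled list of 99 differential peaks was used, all of them on chromosome 1, with no value per library. Among the sterol genes 4, PMVK, FDPS, GGPS1 and HSD17B7, lie on that chromosome, 3 of them on the plus strand, and 0 of the 99 peaks lay in any of them. Of the 99 peaks, 94 lay in plus-strand genes, so the list says little about PMVK, which lies on the minus strand. The list holds differential peaks only, so it does not show whether these 4 genes carry m6A. The m6A state of the other 25 genes was not analysed either. A single peak lay in a gene of the related lists, DHDDS, a subunit of the enzyme that makes the dolichol chain, at chromosome 1, 26469888 to 26469978 (GRCh38, 91 bases), annotated to the 3′ UTR, with an authors' fold enrichment of 1.15.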

How the data were processed

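Input RNA and m6A-immunoprecipitated RNA of HCT116 cells were sequenced on a NovaSeq. The authors deposited FPKM per transcript for the 4 input libraries (GRCh38 per the submitters' notes), with aligner, quantifier and peak caller not stated in the sources read. The deposited peak list covers chromosome 1 only and gives a pooled fold enrichment, a ratio. Columns of the authors' own fold changes and p-values in both tables were not used. FPKM is not a count, so sequencing depth is unknown and no counting interval is given.

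FPKM of all transcripts with the same gene identifier was summed, and genes averaging at least 1 FPKM across libraries were kept. Their log2(FPKM + 1) was fitted with limma 3.58.1 (lmFit, eBayes with trend, R 4.3.3), si-YTHDF3 against NC, 2 libraries each. Benjamini-Hochberg adjustment ran over all genes tested, with 0.05 as threshold. Errors are standard errors, and a fold change on this scale understates the change of low genes. Transcripts were fitted likewise. The fit was tested on simulated data. A call of no overlap means that both libraries of a group lay on 1 side of both of the other.

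All 29 sterol genes and YTHDF3 were named. Of each related list up to 4 genes with the largest log2 fold change at an unadjusted p under 0.05 were named, NFYA and VIL1 besides, chosen after their values were seen. Transcripts were named by the rule given with them, as the leading transcript of a gene, or after their values were seen (INSIG1 ENST00000342407, MSMO1 ENST00000507013 and SCAP ENST00000320017). The members, lists and motifs were chosen with earlier results of these data known. Promoters are RefSeq sequences (GRCh38.p14). Plots were drawn with matplotlib 3.10.9.

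Alternatives were a pseudocount of 0.1, no filter, a filter at 5 FPKM, equal sums, median-ratio scaling, weighting transcripts by length, a replicate block and leaving out each library.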

Additional observations from a re-analysis of the deposited data

How the results depend on the processing

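The number of genes called at an adjusted p under 0.05 was 4 and moved with the processing, to 0 with no filter, 15 with a filter at 5 FPKM and 0 to 67 when 1 library was left out. Sterol genes lower at an unadjusted p under 0.05 numbered 6, and 2 to 6 when 1 library was left out (3 without NC replicate 1, 2 without NC replicate 2, 3 without si-YTHDF3 replicate 2). Sterol genes higher at that level numbered 1, 2 with transcripts weighted by length, and 0 to 1 when 1 library was left out. The median log2 fold change of −0.11 ranged from −0.23 to −0.11 with 1 library left out. With 1 library of a group left, the fit took the spread from the other group, and the lone library is assumed to vary likewise.

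The replicate numbers were used as a replicate block, although with 2 pairs they do not show that samples are paired (the correlation of deviations was −0.11). With the block 132 genes in all were called at the adjusted threshold, 1 sterol gene among them (INSIG1, adjusted p = 0.0215, where its other alternatives gave 0.124 to 0.580), and at an unadjusted p under 0.05, 2 sterol genes were lower and 0 higher. YTHDF3 was called with the block (adjusted p = 0.00031). At an unadjusted p under 0.05 the block also ended the calls of ME1, RABGGTA, CAV1, OSBPL2, FAF2 and NFYC. The crossed replicate block, chosen after seeing the data, called 0 genes at the adjusted threshold.

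The sign of the log2 fold change was kept for 20 sterol genes under every alternative and reversed somewhere for 9. Weighting by length gave GGPS1 0.068, INSIG2 0.042 and EBP −0.0046. Equal sums gave EBP −0.026 and SREBF2 −0.023, and median-ratio scaling gave EBP −0.013 and SREBF2 −0.0088. With 1 library left out, log2 fold changes ranged from −0.26 to 0.077 for GGPS1, −0.17 to 0.031 for FDFT1, −0.28 to 0.12 for LSS, −0.11 to 0.19 for TM7SF2, −0.090 to 0.094 for EBP, −0.22 to 0.0097 for SC5D, −0.32 to 0.093 for DHCR7, −0.23 to 0.063 for INSIG2 and −0.089 to 0.10 for SREBF2. The causes were not tested. FPKM hides sequencing depth, and 2 libraries a group give wide intervals, so a difference that misses the threshold does not show equal levels.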
